A study of Nothobranchius furzeri with 3 samples.

Results

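let-7 and lin-4 are the founding pair of heterochronic miRNAs, and they are described here across 3 small RNA libraries of skin from the turquoise killifish (Nothobranchius furzeri), a fish of seasonal ponds that ages within months. They were chosen by name, as the rows nfu-let-7 and nfu-lin-4 of the count table, and make up 2 of its 324 features. Each library was made from skin of male fish, of strain MZM-04/10p and 39 weeks old. No treatment or genetic change is given in the labels, and no second age, sex, tissue or strain is part of the data, so the values describe 1 group and no contrast between conditions was made. The libraries are called 1, 2 and 3 in accession order. Separate fish are not stated in so many words, so SDs measure the spread of these libraries, part of which may be technical. Sign-flip tests take the same libraries as their units. The p-values of Fisher's exact test and the chi-square test set differences between these libraries against counting error alone.

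Both miRNAs were found in the nematode as switches of developmental time. There lin-4 represses lin-14 and lin-28 in early larvae, and let-7 represses lin-41 before the adult stage. Vertebrates carry many let-7 genes, and the vertebrate family of lin-4 is called miR-125. LIN28 proteins block the maturation of let-7 and are themselves targets of both families, so mature let-7 is generally low in early embryos and stem cells and high in differentiated tissue. In vertebrates several let-7 and miR-125 genes lie close to each other and to genes of the miR-99/100 family, and some of these clusters are transcribed as a unit. The names let-7 and lin-4 in the table carry neither a gene letter nor an arm, so each value is that of a name, in which reads of related genes cannot be told apart.

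Library totals ran between 5021238 and 9590428 counts, and between 222 and 238 of the 324 features had at least 1 count. Epidermal markers were abundant. Of 5 names mir-205, mir-203, mir-8 and mir-184 were detected and together took 6.76%, 7.30% and 9.08% of counts in libraries 1, 2 and 3. Most of this sum was mir-205, with a mean of 6.63% beside 7.71% for the list. mir-184, with 22540, 13957 and 33689 counts, was lowest in library 2, unlike the sum. The name mir-200, the fifth, had 0 counts throughout, which allows up to 0.597, 0.351 and 0.313 counts per 1000000 (CPM) under that name. This 0 does not show that the miRNA is absent, since reads of its family may be counted under another name. Library 2 stood apart in some features of other tissues. Its gonad and embryo markers reached 0.0324% of counts, almost all from mir-202, against 0.00173% in library 1 and 0.000459% in library 3. The other name of that list, mir-430, did not share this pattern. It had 1, 7 and 14 counts in libraries 1, 2 and 3, few in each and most in library 3. Results that rest on library 2 are therefore given without it as well.

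let-7 was abundant in each library and highest in library 2. It had 156915 counts in library 1, 629340 in library 2 and 338801 in library 3, which is 3.13% (95% exact binomial interval 3.11 to 3.14), 7.36% (7.35 to 7.38) and 3.53% (3.52 to 3.54) of all counts. Libraries 1 and 3 lay close together and library 2 stood well above both, and no interval touched another. The mean share was 4.67% ± 2.34 (SD, n = 3), and 3.33% ± 0.288 over libraries 1 and 3 alone. The intervals cover counting error only, since reads without molecular identifiers may include PCR copies.

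lin-4 was less abundant. It had 40988, 106137 and 104658 counts in libraries 1, 2 and 3, equal to 0.816% (0.808 to 0.824), 1.24% (1.23 to 1.25) and 1.09% (1.08 to 1.10) of counts. Library 2 was again the highest, but library 3 followed it closely and library 1 was the low one. The mean share was 1.05% ± 0.216 (SD, n = 3), or 0.954% ± 0.194 without library 2. The SD was 50.0% of the mean for let-7 and 20.6% for lin-4. Without library 2 this order turned round, with 8.66% for let-7 and 20.4% for lin-4. The 2 features together held 5.72% ± 2.52 of all counts, or 4.28% ± 0.483 without library 2.

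**Figure D1:**
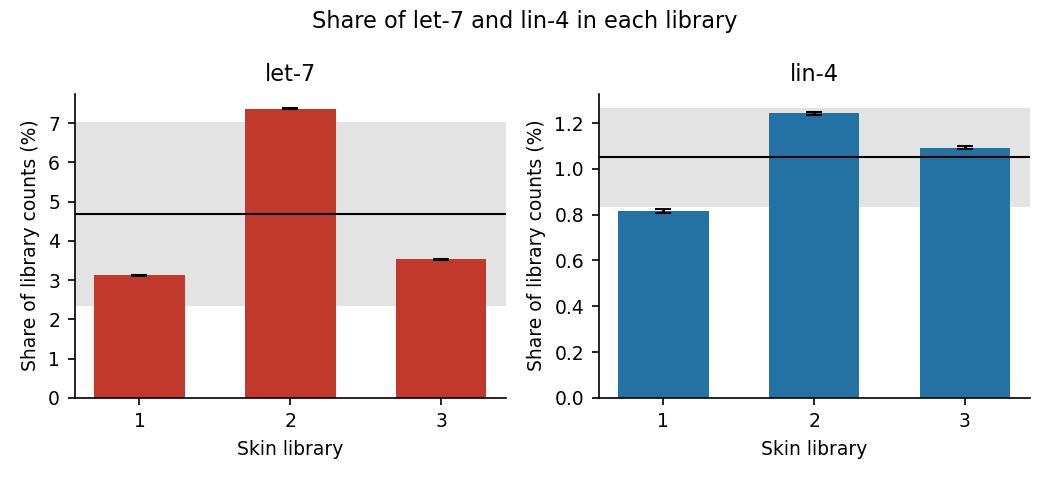
Share of library counts (%, y axis) of let-7 and lin-4 in the 3 skin libraries (x axis), with exact binomial 95% intervals as error bars, the mean over libraries as a line and 1 SD to either side shaded. let-7 stands at 7.36% in library 2 against 3.13% and 3.53% in libraries 1 and 3, whereas lin-4 stays between 0.816% and 1.24%.

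In the rank order, let-7 held place 9, 5 and 9 of 324 in libraries 1, 2 and 3, and place 6 by mean CPM, or place 9 without library 2. lin-4 held place 16, 13 and 16, and place 16 by mean CPM with and without library 2. let-7 thus moved past several features in library 2, where it stood directly above the epidermal mir-205, while in library 1 it stood just below mir-22 and in library 3 just below mir-27.

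Of the features next to let-7, mir-181 kept the same order to it in each library and the others did not. Above it by mean share were mir-181 at 11.3% ± 2.52 and mir-205, a miRNA of stratified epithelium, at 6.63% ± 1.01. Below it were mir-27 at 4.07% ± 0.164 and mir-21, which is raised in many states of injury, at 4.05% ± 1.06. let-7 was lower than mir-181 in 3 of 3 libraries, and it was higher than mir-205, mir-27 and mir-21 in library 2 only, that is in 1 of 3 libraries each. In libraries 1 and 3 mir-27 held 4.14% and 3.88%, above let-7 in both.

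lin-4 sat at the foot of the abundant features. Just above it were mir-133, a miRNA of striated muscle, at 1.47% ± 0.770 and mir-30 at 1.12% ± 0.118, and lin-4 exceeded each in library 2 only. Just below came mir-101 at 0.479% ± 0.202 and mir-338 at 0.462% ± 0.0994, and lin-4 exceeded both in 3 of 3 libraries. The mean share of lin-4 minus that of mir-101 was 0.571 percentage points ± 0.0747, and minus that of mir-338 it was 0.588 ± 0.130. Of the 8 differences between let-7 or lin-4 and these neighbours none passed a two-sided sign-flip test (exact permutation), which cannot give a p below 0.25 with n = 3 (smallest adjusted p = 0.667). Reads per feature were not divided by length, which the table does not give, and ligation captures some sequences better than others, so an order of different miRNAs carries that bias.

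**Figure D2:**
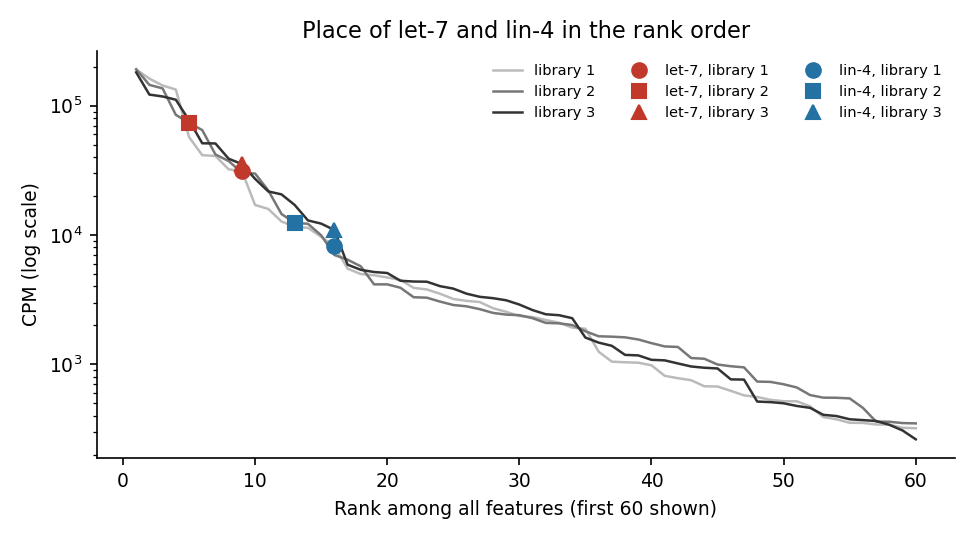
CPM (y axis, log scale) against rank (x axis) for the leading features of each library, drawn as 1 line per library, with let-7 in red and lin-4 in blue. let-7 lies at place 5 in library 2 and place 9 in the other libraries, and lin-4 at place 13 in library 2 and place 16 in the others.

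The let-7 to lin-4 ratio needs no scaling between libraries, because both counts come from the same library. let-7 had 3.83 times the counts of lin-4 in library 1 (95% exact binomial interval 3.79 to 3.87), 5.93 times in library 2 (5.89 to 5.97) and 3.24 times in library 3 (3.21 to 3.26). let-7 exceeded lin-4 in 3 of 3 libraries, with library 2 the highest and library 3 the lowest. As a share of the pair, let-7 took 79.3%, 85.6% and 76.4% of the counts.

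On the log2 scale the ratio averaged 2.07 ± 0.451 (SD, n = 3), a geometric mean of 4.19-fold. The exact two-sided sign-flip test over the libraries returned p = 0.25. With n = 3 no smaller value exists, so the direction cannot pass 0.05 in this design. Without library 2 the log2 ratio was 1.82 ± 0.171.

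The ratio itself differed between libraries by more than counting error. It was 1.83-fold higher in library 2 than in library 3 (95% counting interval 1.81 to 1.85) and 1.55-fold higher in library 2 than in library 1 (1.53 to 1.57). Library 3 had 0.846 times the ratio of library 1 (0.835 to 0.857). Fisher's exact test with Benjamini-Hochberg adjustment over the 3 pairs gave an adjusted p of 2.99e-145 for libraries 3 and 1, and values too small for the computer to represent for the other pairs. These tests compare 3 libraries read by read and say nothing of a condition.

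**Figure D3:**
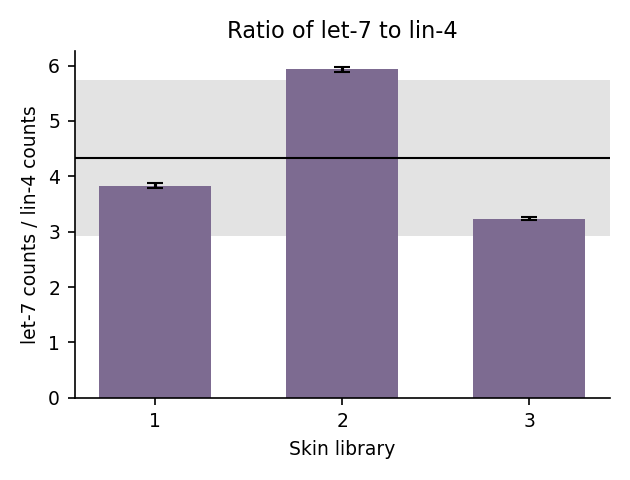
Ratio of let-7 counts to lin-4 counts (y axis) in the 3 skin libraries (x axis), with exact binomial 95% intervals as error bars, the mean as a line and 1 SD to either side shaded. The ratio is 5.93 in library 2 and lies at 3.83 and 3.24 in libraries 1 and 3.

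Whether the 2 miRNAs changed together was read from each pair of libraries, since a correlation needs at least 6 samples. Levels were scaled by the TMM method of edgeR (a trimmed mean of log ratios). It is meant to correct for library composition and assumes that most features do not change, which was not tested. On this scale let-7 stood at 33249.5, 74299 and 32912 CPM across libraries 1 to 3. lin-4 stood at 8685, 12530.4 and 10167 CPM. Both were highest in library 2, as were 41.7% of the 115 features that averaged at least 100 counts, and 17.2% of all 6555 pairs of these features shared that library as their highest.

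The size of the change differed. let-7 was 2.23-fold higher in library 2 than in library 1 (95% counting interval 2.22 to 2.25), and lin-4 was 1.44-fold higher (1.43 to 1.46). Against library 3, let-7 was 2.26-fold higher in library 2 (2.25 to 2.27) and lin-4 1.23-fold (1.22 to 1.24). On the TMM scale let-7 was past 2-fold in both comparisons and lin-4 in neither. Past 2-fold were 18.3% of the 115 features for library 2 over library 1 and 13.0% for library 2 over library 3. Between libraries 3 and 1 the 2 parted, with let-7 at 0.990-fold in library 3 relative to library 1 and lin-4 at 1.17-fold. let-7 and lin-4 thus moved the same way in 2 of 3 pairs of libraries, as did 34.3% of the pairs of features, while 16.8% did so in 3 of 3. Both of those library pairs include library 2, and the third rests on a let-7 log2 difference of -0.01, so this count does not settle whether the 2 change together.

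Part of this depends on scaling. let-7 was highest in library 2 under 5 of 5 scalings, and lin-4 under 4 of 5. With upper quartile scaling, which moved the level of every feature in library 2 by -0.46 (log2) relative to library 1 and to library 3, lin-4 was highest in library 3, and the pair moved the same way in 1 of 3 pairs of libraries. let-7 then ranged 1.64-fold from its lowest to its highest library, so library 2 was past 2-fold in neither comparison. Scaling by library totals moved every feature in library 3 by 0.19 (log2) relative to library 1, and the pair then moved the same way in 3 of 3, since let-7 had a log2 difference of 0.18 between libraries 3 and 1 in place of -0.01. DESeq2 size factors moved every feature in library 2 by -0.16 relative to library 1, and the count stayed at 2 of 3. With TMM factors computed from the other features alone the count was 3 of 3. This rests on the sign of a let-7 log2 difference of 0.0004 between libraries 3 and 1, beside 0.24 for lin-4. The 2 miRNAs thus had the same sign between libraries 3 and 1 under 2 of the 4 alternatives, in the latter with let-7 nearly unchanged. lin-4 was higher in library 3 than in library 1 under all 5 scalings, and let-7 under 2 of 5. Independently of any scaling, the ratio of let-7 to each of the 114 other features was highest in library 2 for 97 of them, in library 1 for 12 and in library 3 for 5. The ratio of lin-4 to the others was highest in library 2 for 63 of 114, in library 3 for 29 and in library 1 for 22. The 114 ratios of a miRNA share its counts, so they are not independent and only place it among the features. The same count was not made for other features, of which 41.7% of the 115 were highest in library 2 on the TMM scale.

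Over all 3 libraries let-7 varied more than lin-4, which rests on library 2. The highest library exceeded the lowest 2.26-fold for let-7 and 1.44-fold for lin-4, beside a median of 1.92-fold over the 115 features. On the TMM scale let-7 was past 2-fold, as were 46.1% of these features, and 36 features had a wider range. For lin-4 84 had a wider range. Without library 2, let-7 differed 1.01-fold and lin-4 1.17-fold between the libraries left, which is the opposite order. The biological coefficient of variation, which is the spread between libraries beyond counting error, was 0.459 for let-7 and 0.421 for lin-4 with edgeR, beside a median of 0.435 over the 158 features that averaged at least 10 counts. These values are drawn toward the common one of 0.456. Without that shrinkage let-7 had 0.471 and lin-4 0.184, beside a median of 0.295. By a chi-square test with Benjamini-Hochberg adjustment both differed between libraries beyond counting error. So did 81.6% of the 158 features, and 112 of the 115 more abundant ones. The statistics were 176235 for let-7 and 5275 for lin-4 on 2 degrees of freedom. That of let-7 was the largest of the 158, but the statistic grows with the count and let-7 is among the most abundant.

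How closely 2 features follow each other was measured by the SD over the 3 libraries of their log2 count ratio, which is small when they change together and is free of scaling. For let-7 and lin-4 it was 0.451. Over all 6555 pairs of the 115 features the median was 0.723, and 26.1% of pairs had a smaller value than let-7 and lin-4. The median was 0.721 over the ratios of let-7 to the 114 other features, and 0.467 over those of lin-4. From the side of lin-4 the value of the pair was thus close to the median. Without library 2 the value for let-7 and lin-4 was 0.171, which is over 2 libraries and has no median of all pairs beside it. lin-4 took place 24 of 114 in likeness to let-7, and let-7 took place 55 of 114 in likeness to lin-4. Without library 1 lin-4 took place 41 instead and let-7 place 77. Without library 2 lin-4 took place 29 and let-7 place 34.

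For scale, 13 of 18 listed pairs of features that are co-transcribed in vertebrates could be measured in the same way. Some of them share a feature, as mir-24 with mir-27 and mir-23 with mir-27 do, so they are not independent. The SD of the 13 pairs ran between 0.0416 for mir-24 with mir-27 and 0.980 for mir-216 with mir-217, with a median of 0.332. The value of let-7 with lin-4 lay between those of mir-199 with mir-214 (0.419) and mir-143 with mir-145 (0.475), with 9 of the 13 pairs below it and 4 above. These pairs range to both sides of 0.723, the median of all pairs, so a place among them cannot show co-transcription. Whether let-7 and lin-4 reads of this fish come from shared transcripts was not tested.

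**Figure D4:**
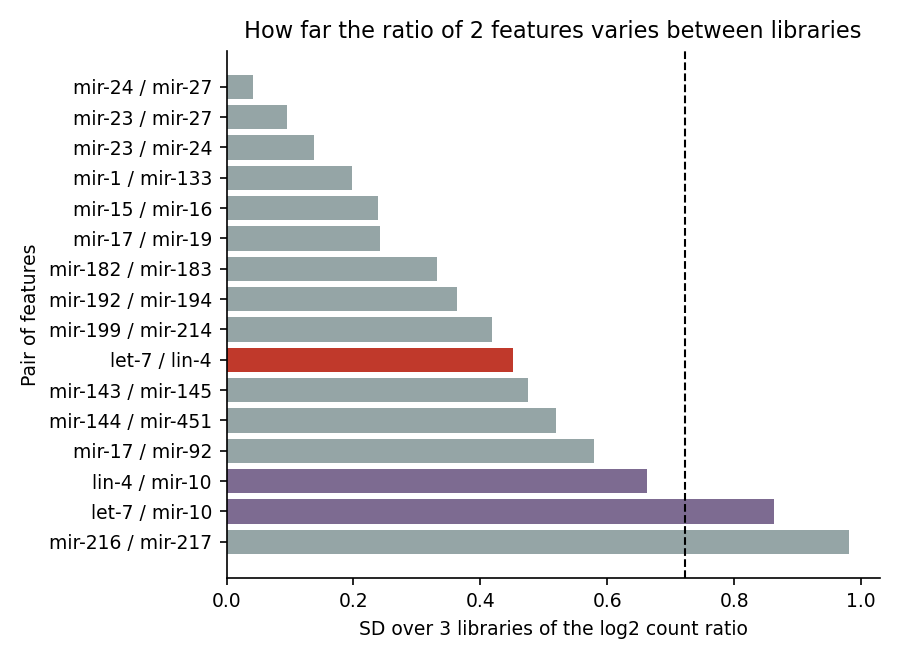
SD over the 3 libraries of the log2 count ratio (x axis) for let-7 with lin-4 (red), each of them with mir-10 (purple) and 13 pairs co-transcribed in vertebrates (grey), 1 pair per row, with the median of all 6555 pairs as a dashed line. let-7 with lin-4 (0.451) lies left of the dashed line at 0.723, and let-7 with mir-10 (0.863) lies right of it. The co-transcribed pairs range from 0.0416 to 0.980, to both sides of that line. Over the ratios of lin-4 to each other feature the median is 0.467, close to the value of lin-4 with let-7.

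The features whose pattern was most like that of let-7 were mir-19, mir-223, mir-199, mir-142 and pred_717, a feature with a prediction number only. Their SDs of the log2 ratio to let-7 over the 3 libraries were 0.141, 0.141, 0.156, 0.166 and 0.171. mir-19 belongs to the miR-17-92 clusters and stood at 611 TMM-scaled CPM in library 1, 1628 in library 2 and 711 in library 3. mir-223, a miRNA of myeloid cells, had 363, 973 and 370. mir-199, known from mesenchyme, had 10292, 22266 and 12059. mir-142, a miRNA of blood cells, had 1330.5, 2416 and 1090.1. Each was highest in library 2, a pattern that the choice of features by likeness to let-7 fixes.

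lin-4 was most like mir-15, mir-3596, mir-153, mir-9 and mir-338, with SDs of 0.0361, 0.0651, 0.0941, 0.0945 and 0.124. mir-15 stood at 1114, 1659.7 and 1369 TMM-scaled CPM across libraries 1 to 3, and the ratio of lin-4 to it was close to constant. mir-9, a neural miRNA, had 206, 603 and 582 counts, and mir-153 had 351, 799 and 826, so both rest on few reads. mir-338, on the TMM scale, stood at 4026, 5768 and 4049 CPM. With 3 libraries such likeness is weakly fixed: with each library left out in turn, none of these 10 features stayed among the nearest 5 more than 1 time in 3. Of the other neuronal names, mir-218, mir-138 and mir-128 took places 18, 27 and 46 of 114 in likeness to lin-4. The fifth, mir-124, had 19, 46 and 22 counts and was not ranked.

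**Figure D5:**
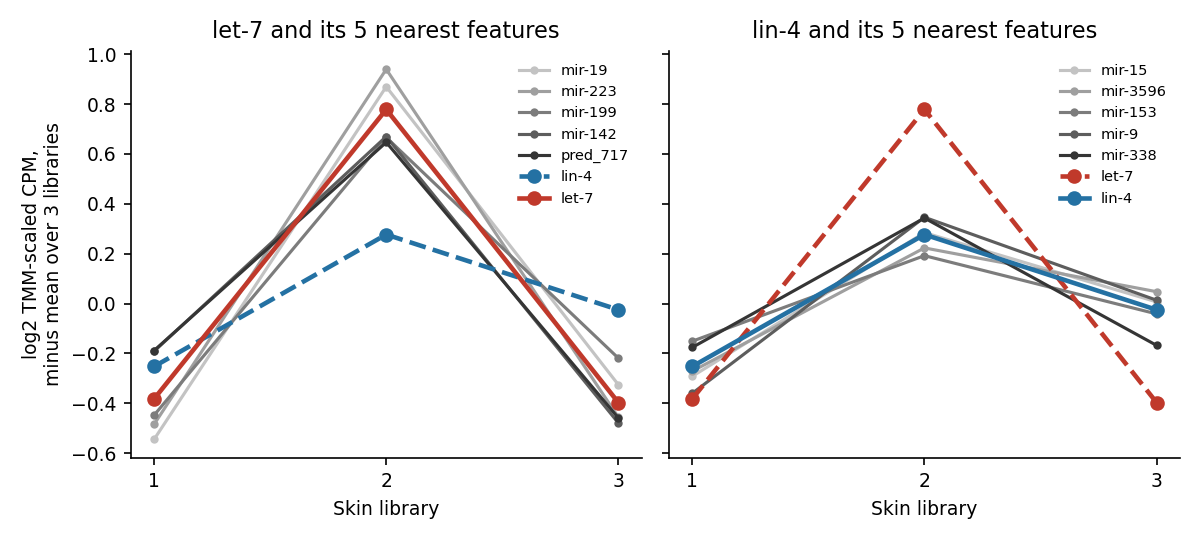
Level of each feature as log2 TMM-scaled CPM minus its mean over the 3 libraries (y axis) by skin library (x axis), for let-7 with its 5 nearest features (left) and lin-4 with its 5 nearest features (right). Lines only join the values of a feature, as the libraries have no order, and the other miRNA of the pair is dashed. let-7 and its nearest features peak in library 2, and lin-4 and its nearest features range less widely over the 3 libraries.

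Markers of other cell types also differed between the libraries. Of the leukocyte list, 5 of 5 names were in the table and detected, and their summed share was 0.476%, 0.502% and 0.460% in libraries 1, 2 and 3. Of these 5, mir-223 and mir-142 took places 2 and 4 in likeness to let-7, while mir-155, mir-150 and mir-146 took places 57, 77 and 94 of 114. The erythroid list, with 2 of 2 names detected, held 0.113%, 0.226% and 0.0509%, and mesenchyme and smooth muscle, with 4 of 4, held 1.92%, 2.71% and 1.89%. Both sums were highest in library 2, as was let-7. The leukocyte sum was highest there by a small margin, and only as a share. On the TMM scale it stood at 5068, 5062 and 4287 CPM across libraries 1 to 3. Of the erythroid names, mir-144 and mir-451 took places 41 and 64 of 114 in likeness to let-7. In the mesenchyme list mir-199, at place 3 in likeness to let-7, carried the high sum in library 2. mir-143 (5836, 3326 and 3580.4 TMM-scaled CPM) and mir-145 (3731, 1112 and 1497) were lowest in library 2 and took places 80 and 104, and mir-214 took place 26.

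Striated muscle and liver and gut features were lowest where let-7 was highest. Striated muscle, with 3 of 4 names in the table, held 1.64%, 0.667% and 2.23% in libraries 1, 2 and 3, and liver and gut, with 3 of 3, held 0.491%, 0.100% and 0.560%. The neuronal list, with 5 of 5 names detected, held 0.140%, 0.243% and 0.272%, and the endothelial mir-126 held 0.487%, 0.415% and 0.312%. The part of any of these cell types in the values of let-7 and lin-4 was not tested, and in whole skin a change in the number of cells of a type cannot be told apart from a change in the RNA per cell.

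Few names of the wider heterochronic group were in the table. Of 13 names of the let-7, lin-4 and miR-99/100 families and their relatives, 5 were found: let-7, lin-4, mir-10, mir-202 and mir-48. The names mir-98, mir-125, mir-99, mir-100, mir-84, mir-241, mir-795 and mir-237 were not among them. An absent name does not show an absent miRNA, since a name can stand for a family, as lin-4 does for miR-125. All 5 differed between libraries by the chi-square test with Benjamini-Hochberg adjustment. So did 81.6% of all features tested, and 112 of the 115 that averaged at least 100 counts. Of the 5, 3 were highest in library 2, as were 41.7% of those 115 features. The median range over the 5 was 1.96-fold, beside 1.92-fold over the 115 more abundant features.

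mir-10 is a name that can also stand for the family of miR-99 and miR-100. Whether it does so in this table is not given, so its values are those of the name only. Its TMM-scaled CPM was 202496 in library 1, 137058 in library 2 and 103471 in library 3, highest in library 1 where let-7 and lin-4 were not. let-7 had 0.164, 0.542 and 0.318 times the counts of mir-10 in these libraries, and lin-4 had 0.0429, 0.0914 and 0.0983 times. The SD of the log2 ratio was 0.863 for let-7 with mir-10 and 0.662 for lin-4 with mir-10, both wider than the 0.451 of let-7 with lin-4. mir-48, a let-7 family member of the nematode, had 66, 68 and 86 counts (adjusted p = 0.0114, chi-square test with Benjamini-Hochberg adjustment), a mean share of 0.00100%. mir-202, known from fish gonads, had 86, 2758 and 30 counts and took the last place, 114 of 114, in likeness to let-7 and to lin-4.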

How the data were processed

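The authors deposited raw read counts, as whole numbers per miRNA name and library, neither normalized nor pooled. Per the labels' protocols, total RNA went into Illumina's TruSeq kit for small RNA libraries. SAMtools 1.3.1-9, BWA 0.7.12-r1039, Trimmomatic 0.36 and bcl2fastq 1.8.4 are listed in the submitters' processing notes, without their roles. Not given in the sources used here are the genome build, the miRNA annotation and the treatment of reads with several matches; the last could shift let-7 most, as a family of many copies. No miRNA sequences or coordinates are printed, since neither miRNA sequences nor a genome of this fish were available here. Neither name (0 of 2) is a symbol in the RefSeq gene table used here.

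The members, marker lists, co-transcribed pairs and tests were chosen with earlier results of these data known. Shares and CPM were computed from the counts with the library total as denominator. TMM factors were 0.94, 0.99 and 1.07 for libraries 1, 2 and 3. Intervals are exact binomial (Clopper-Pearson), or normal on the log scale for ratios between libraries. The chi-square test and the edgeR intercept-only fit ran on the 158 features averaging 10 or more counts, and likeness and range on the 115 averaging 100 or more. Named features were the 2 neighbours to either side by mean CPM, the 5 nearest by SD of the log2 ratio, and the heterochronic list; other names come from marker lists and pairs. The chi-square test was tried on simulated counts that had counting error and planted changes but no other spread between libraries. The likeness order was tried with a simulated copy of let-7, and the spread estimate for the common value only. These trials do not cover the separate spread values of let-7 and lin-4. Alternatives were other denominators, scalings, count filters, pseudocounts and dispersion estimates, and each library left out. Tools were R 4.3.3, edgeR 4.0.16, DESeq2 1.42.0, Python 3.11.15, numpy 2.4.6, scipy 1.17.1, pandas 2.3.3 and matplotlib 3.10.9.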

Additional observations from a re-analysis of the deposited data

How the results depend on the processing

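No paired contrast of conditions was possible because there is only 1 group. The sign-flip tests compared features within each library. Of 71 recomputed values 59 stayed within 1 SD between libraries (shares, and ranges on the log2 scale), kept their direction (the log2 ratio) or stayed within 1.5 times (the rest). Part of this tally was fixed in advance. With 3 libraries, a mean share without 1 of them cannot leave 1 SD, and a log2 ratio positive in each library cannot change direction. A pseudocount of 10 is small beside these counts. A count out of the 1 library pair left could not stay within 1.5 times. The tally therefore says little about how firm the results are. With upper quartile scaling the range was 1.64-fold for let-7 and 1.17-fold for lin-4. With that scaling 1 of 3 library pairs moved the same way for let-7 and lin-4. The coefficient of variation of lin-4 was 0.184 without shrinkage and 0.133 with DESeq2. With each library left out in turn, the range was 1.01-fold to 2.26-fold for let-7 and 1.17-fold to 1.34-fold for lin-4, lowest without library 2 for both, and the SD of their log2 ratio was 0.171 (without library 2) to 0.617. The place of lin-4 in likeness to let-7 was 28 to 41, and that of let-7 in likeness to lin-4 was 34 to 77. Of the 1 library pair then left, 0 (without library 2) to 1 moved the same way. The let-7 share was 3.33% to 5.45%, the lin-4 share 0.954% to 1.17% and the log2 ratio 1.82 to 2.25. Counts of both are far above the depth limit, so 3 libraries, not depth, set the precision.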
